A study of Mus musculus with 10 samples.

Results

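The 10 genes described here form the LIF-STAT3 branch of self-renewal signalling in mouse embryonic stem cells (mESCs), with the MYC factors and PIM kinases that lie downstream of it. They were chosen by name, as the table rows whose symbol was *Lifr*, *Il6st*, *Jak1*, *Stat3*, *Socs3*, *Myc*, *Mycn*, *Pim1*, *Pim2* or *Pim3*, 10 of the 34591 genes in the table, and all 10 passed the filter on low values in each comparison with WT. As background, leukaemia inhibitory factor (LIF) binds a receptor made of LIFR and gp130, the product of *Il6st*, which brings the kinase JAK1 to phosphorylate STAT3. Phosphorylated STAT3 enters the nucleus and activates genes that hold mESCs in the naïve state, among them *Socs3*, whose product binds gp130 and JAK1 and dampens the same pathway. MYC and MYCN are basic helix-loop-helix factors that pair with MAX on E-box sequences and drive growth and ribosome production, and PIM1, PIM2 and PIM3 are constitutively active serine/threonine kinases that promote survival and are controlled mainly by their level.

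RNA from male mESCs of C57/BL6 background (Bruce-4) was sequenced in 10 libraries, 2 from each of 5 lines: the parental WT line, which was not edited, clones D2A7 and D1E6 with a *Dnttip1* KO, and clones E2E8 and E2G7 with an *Elmsan1* KO. *Dnttip1* and *Elmsan1* encode subunits of the mitotic deacetylase complex (MiDAC), a histone deacetylase complex built on HDAC1 or HDAC2. In mESCs the study found HDAC1 but not HDAC2 bound to these subunits, and it proposes that only HDAC1 takes part there. Each KO line grew from an individual cell edited with CRISPR/Cas9 and was moved to 2iL medium after editing, so that each genotype was sampled by 2 clones. The study calls the 2 libraries of a line biological replicates, but neither it nor the labels say that they came from separate cultures. The p-values therefore measure only the spread between these libraries, and how far that spread is technical is not known. All lines, WT included, were kept in 2iL medium with 1000 U/ml LIF, 3 µM of the GSK3β inhibitor CHIR 99021 and 1 µM of the MEK inhibitor PD 0325901, so the pathway was supplied with its ligand in each library and no library lacked LIF. Protein, phosphorylation and chromatin binding were not measured in these libraries.

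The libraries held between 30182379 and 84291856 fragments on genes, the 2 WT libraries being the shallowest. Across libraries the member with the fewest fragments was *Myc*, with 109 to 377, and no other member had fewer than 310. *Dnttip1* stood at 8.15 and 8.43 FPKM (fragments per kilobase of exon, scaled to library size) in WT, 4.57 and 4.56 in D2A7, and 2.59 and 2.63 in D1E6, so its RNA was reduced but present in the KO clones. *Elmsan1*, listed under its older name C130039O16Rik, stood at 5.39 to 5.53 FPKM in WT and 4.62 to 5.18 in the *Elmsan1* KO libraries, a log2 difference of -0.19 that did not pass the test (adjusted p = 0.188), so RNA level does not check the labels of these clones. The 7 pluripotent cell markers were abundant in each library, with summed levels of 2769 to 2937 FPKM in WT, 2961 to 3615 in *Dnttip1* KO and 2740 to 3043 in *Elmsan1* KO, of which *Dppa5a* alone made up 1497 to 2296 FPKM. Beneath these sums single markers stood on either side of WT. *Sox2* stood lower than WT by -0.35 to -0.47 on the log2 scale in the 4 clones and *Nanog* by -0.18 to -0.42, all under 1.5-fold, and *Zfp42*, on chromosome 8, stood higher by 0.28 to 0.63, past 1.5-fold in D2A7. *Tdgf1* split by clone, at 0.31 in D2A7, -0.04 in D1E6, -0.56 in E2E8 and -0.27 in E2G7. *Pou5f1* stood at 0.03, -0.15, -0.35 and -0.09 in the same order, and both genes stayed under 1.5-fold. In limma 0 of the 7 passed in either knockout, and the medians were -0.06 and -0.22. At an adjusted p under 0.05 there were 2 in *Dnttip1* KO, beside 9.47% of all genes, and 3 in *Elmsan1* KO, beside 10.5%. The 7 fibroblast markers summed to between 0.131 and 0.588 FPKM. In bulk RNA a lower level can reflect fewer cells of a type or less RNA per cell, which cannot be told apart.

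The sequences just upstream of *Socs3* and *Pim2* are shown because these were the members that fell in both knockouts, and that of *Mycn* because it was the highest WT member and also stood lower in all KO libraries. Each is the 250 bases before the annotated start of the coding transcript (NCBIM37, GENCODE vM1), read on the gene's strand. Capitals mark a match to TTCNNNGAA, the palindromic element that STAT dimers bind. The *Socs3* window is chr11:117830501-117830750 on the minus strand, that of *Pim2* is chrX:7455178-7455427 on the plus strand, and that of *Mycn* is chr12:12948721-12948970 on the minus strand.
Socs3-001: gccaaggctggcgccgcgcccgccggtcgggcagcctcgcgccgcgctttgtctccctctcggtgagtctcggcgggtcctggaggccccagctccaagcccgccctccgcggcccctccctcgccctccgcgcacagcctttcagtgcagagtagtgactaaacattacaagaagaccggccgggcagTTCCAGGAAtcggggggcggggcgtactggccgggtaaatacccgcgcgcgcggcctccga
Pim2-001: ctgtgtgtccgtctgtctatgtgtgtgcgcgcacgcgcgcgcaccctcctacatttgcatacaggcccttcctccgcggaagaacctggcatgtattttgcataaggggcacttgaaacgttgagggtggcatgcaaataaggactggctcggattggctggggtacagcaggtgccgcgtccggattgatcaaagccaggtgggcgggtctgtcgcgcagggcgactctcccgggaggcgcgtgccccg
Mycn-001: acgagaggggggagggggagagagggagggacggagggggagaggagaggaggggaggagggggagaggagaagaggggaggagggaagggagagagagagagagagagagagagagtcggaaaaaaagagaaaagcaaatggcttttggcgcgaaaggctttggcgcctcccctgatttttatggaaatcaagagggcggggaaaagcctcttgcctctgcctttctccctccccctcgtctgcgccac
The *Socs3* match began 61 bases before the transcript start, at chr11:117830553-117830561, in an intron of the gene's longer noncoding transcripts. It was the only match among 17 windows of 9 members, Myc not having been searched, against 6.52% of the 45462 coding-transcript windows of all genes. The E-box CACGTG, which MYC and MAX bind, occurred in 1 of these 17 windows (*Lifr*, transcript Lifr-203) and in 6.63% of all windows. Both motifs read the same on either strand. A match describes the letters in these windows and was not tested for binding.

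In WT the members were ordered, on the FPKM scale, as *Mycn* (57.0 FPKM ± 2.39, SD, n = 2), *Pim1* (48.9 ± 2.11), *Pim3* (40.0 ± 0.999), *Socs3* (37.9 ± 1.46), *Il6st* (26.7 ± 0.919), *Lifr* (15.6 ± 0.695), *Stat3* (13.0 ± 0.695), *Jak1* (7.25 ± 0.0806), *Pim2* (3.65 ± 0.137) and *Myc* (1.18 ± 0.172). No neighbours in that order overlapped between the WT libraries. All are protein-coding. In NCBIM37, *Lifr* lies at chr15:7079559-7147489, *Il6st* at chr13:113265216-113297068, *Jak1* at chr4:100824972-100937887, *Stat3* at chr11:100746412-100800854 and *Socs3* at chr11:117827393-117831361. *Myc* lies at chr15:61816946-61821929, *Mycn* at chr12:12942902-12948720, *Pim1* at chr17:29627757-29632390, *Pim2* at chrX:7455388-7460558 and *Pim3* at chr15:88692616-88696150. In both knockouts *Pim1* and *Pim3* came first and *Mycn* after them, although the ranges of these neighbours overlapped. *Socs3*, which stood above *Il6st* in WT, stood beside it in the knockouts, at 21.1 FPKM ± 1.27 (SD, n = 4) beside 22.3 ± 1.38 for *Il6st* in *Dnttip1* KO and 22.3 ± 1.52 beside 21.5 ± 0.481 in *Elmsan1* KO, with overlapping ranges.

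**Figure D1:**
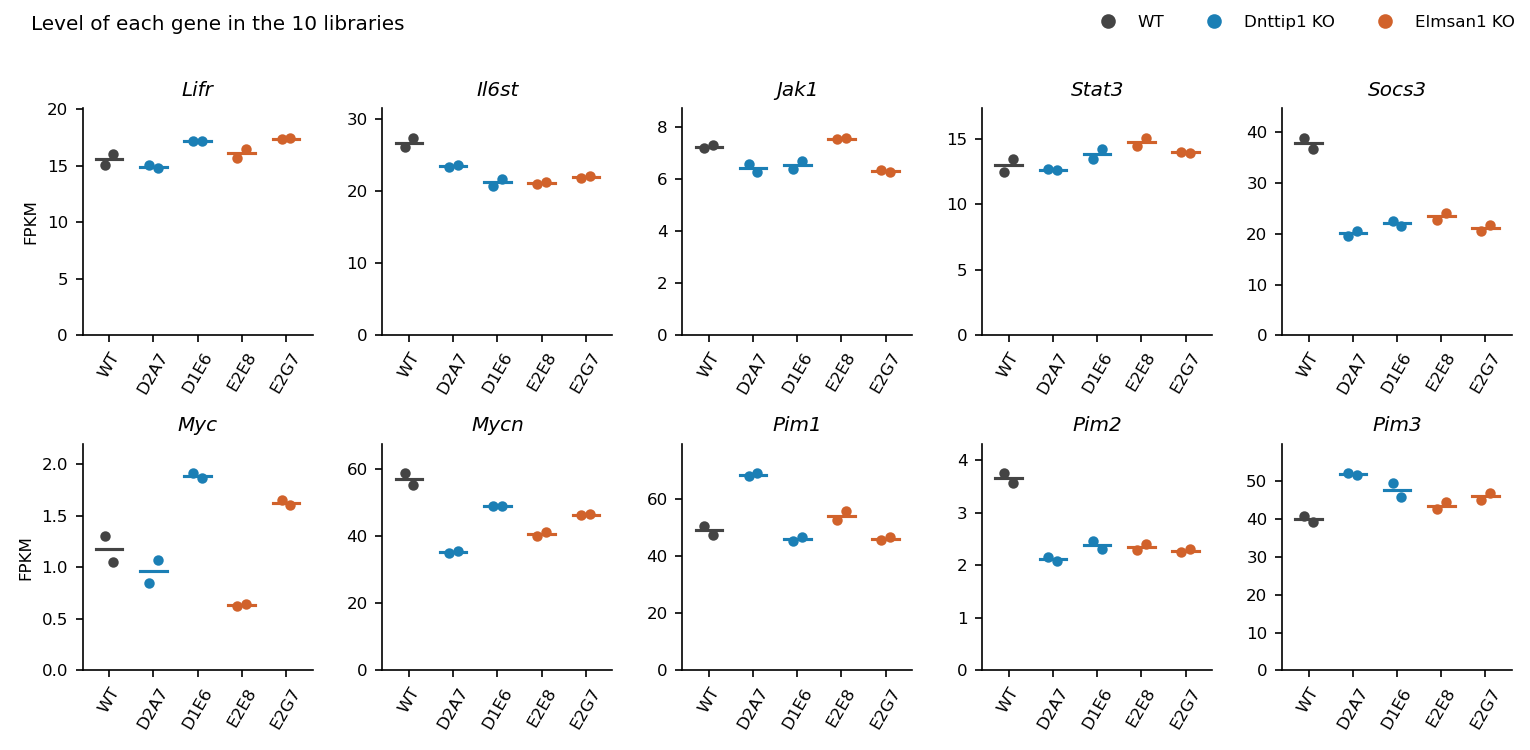
FPKM of each of the 10 genes (y axis, starting at 0) in the 5 lines (x axis); points are libraries, bars the mean of the 2 libraries of a line, grey WT, blue *Dnttip1* KO clones and orange *Elmsan1* KO clones. *Socs3* and *Pim2* stand lower in all 8 KO libraries by a similar step, whereas *Myc* lies above WT in D1E6 and E2G7 and below it in E2E8.

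*Socs3*, the feedback inhibitor, fell in both knockouts and in each clone. Its level was 38.9 and 36.8 FPKM in WT, 19.6 and 20.6 in D2A7, 22.5 and 21.6 in D1E6, 22.8 and 24.2 in E2E8, and 20.6 and 21.7 in E2G7. All 8 KO libraries lay below both WT libraries, with no overlap. The log2 fold change on the log2(FPKM + 0.1) scale was -0.87 ± 0.0732 (SE) in *Dnttip1* KO, a 1.83-fold lower level (limma, adjusted p = 0.00474), and -0.79 ± 0.0769 in *Elmsan1* KO, a 1.72-fold lower level (adjusted p = 0.00455). Each clone passed on its own, from -0.93 in D2A7 (adjusted p = 1.17e-05) to -0.72 in E2E8 (adjusted p = 3.92e-05). Leaving out any library kept the change between -0.94 and -0.80 in *Dnttip1* KO and between -0.86 and -0.71 in *Elmsan1* KO. Because the 4 libraries of a knockout come from 2 clones, a fit with an estimated correlation within clones is the stricter one, and there the adjusted p was 0.0667 and 0.0925. The ratio of *Socs3* to *Stat3* FPKM was 3.11 and 2.73 in the WT libraries and between 1.47 and 1.67 in the KO libraries.

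*Pim2* was the other member to fall in both knockouts. It stood at 3.75 and 3.56 FPKM in WT, 2.15 and 2.09 in D2A7, 2.46 and 2.30 in D1E6, 2.30 and 2.41 in E2E8, and 2.25 and 2.31 in E2G7. The 8 KO libraries again lay below both WT libraries, and the 4 clones spanned a narrow range. The log2 fold change was -0.70 ± 0.104 (SE) in *Dnttip1* KO (adjusted p = 0.0159) and -0.66 ± 0.0921 in *Elmsan1* KO (adjusted p = 0.0112), with adjusted p = 0.162 and 0.198 once a correlation within clones was estimated. It passed in each clone, from -0.78 in D2A7 (adjusted p = 6.85e-05) to -0.63 in D1E6 (adjusted p = 0.000251). These values are near the 1.5-fold threshold. With a pseudocount of 1 the change was -0.54 and -0.51 in the knockouts and passed in neither, and without WT replicate 1 it was -0.56 in D1E6 and -0.57 in E2E8, no longer 1.5-fold, as was also so in D1E6 without its replicate 2 (-0.58). *Pim2* lies on the X chromosome, whose median gene stood lower by between 0.06 and 0.10 on the log2 scale in the 4 clones; the part of that shift in the value of *Pim2* was not tested.

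Of the 10 members, 2 were lower in *Dnttip1* KO at a fold change of at least 1.5 and p under 0.01, where 3.24% of the 17435 genes tested were, and 0 were higher, where 3.26% were. In *Elmsan1* KO 2 were lower, where 3.68% of the 17205 genes tested were, and 0 were higher, where 2.74% were. At an unadjusted p under 0.05, 6 members passed in *Dnttip1* KO by limma, where 27.3% of genes did, and 4 in *Elmsan1* KO, where 27.8% did. By voom 2 members were called in each knockout, where 5.86% and 5.50% of genes were. The members called were the same pair, and 1.59% of the 16878 genes tested in both comparisons were lower in both; the comparisons share the WT libraries. Both members remained among the genes called with a correlation within clones, where 1.46% and 1.47% of genes were lower. At an adjusted p under 0.05 with any fold change, 2 members passed in *Dnttip1* KO (9.47% of genes) and 4 in *Elmsan1* KO (10.5%). Of the 10 members, 4 (*Il6st*, *Socs3*, *Mycn* and *Pim2*) had all 8 KO libraries below both WT libraries, as did 12.8% of genes, and 1 (*Pim3*) had all 8 above, as did 12.6%. The 10 genes were chosen with earlier results of these data known. The shares over all genes are therefore a background for reading the counts, not a test of the set.

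**Figure D2:**
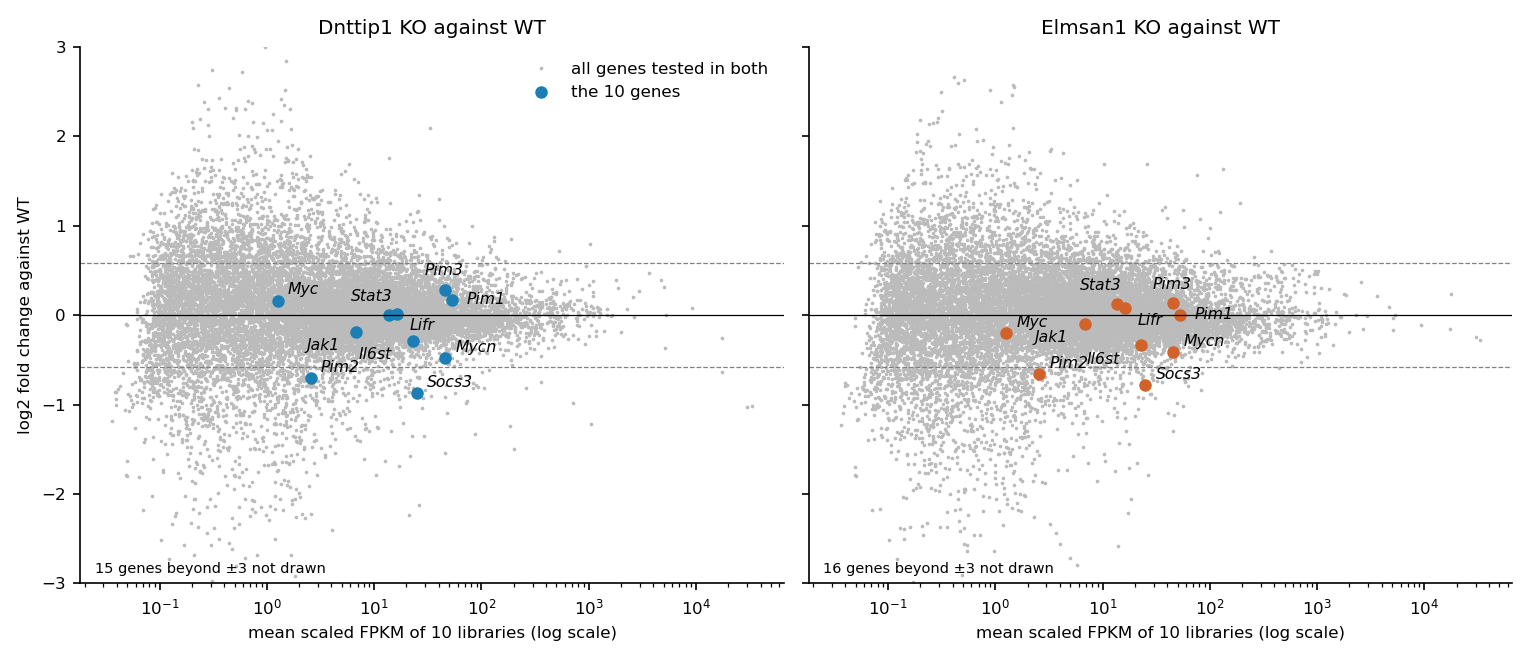
Log2 fold change against WT (y axis) against mean scaled FPKM of the 10 libraries (x axis, log scale) for all genes tested in both comparisons (grey) and the 10 members (coloured), *Dnttip1* KO left and *Elmsan1* KO right; dashed lines mark a 1.5-fold change. *Socs3* and *Pim2* lie below the lower line in both panels and the other 8 members between the lines.

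The paralogous kinases moved differently from *Pim2*. *Pim1* stood at 50.4 and 47.4 FPKM in WT, 67.9 and 68.9 in D2A7, 45.4 and 46.7 in D1E6, 52.5 and 55.8 in E2E8, and 45.5 and 46.5 in E2G7. The D2A7 and E2E8 libraries lay above both WT libraries and those of the other two clones below, and the log2 difference of D2A7 was 0.46 (adjusted p = 0.000193), which did not reach 1.5-fold. The knockout comparisons gave 0.17 ± 0.210 (SE) and 0.01 ± 0.0963. *Pim3* stood at 40.7 and 39.3 FPKM in WT, 45.7 to 52.0 in *Dnttip1* KO and 42.6 to 46.9 in *Elmsan1* KO, higher in 8 of 8 KO libraries, with log2 values of 0.28 (adjusted p = 0.0648) and 0.14 (adjusted p = 0.212) that did not pass. The summed PIM level was 90.3 and 94.9 FPKM in WT and 92.8 to 122.5 in the KO libraries. *Pim2* made up 3.94% and 3.95% of that sum in WT and between 1.70% and 2.53% in the KO libraries.

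The receptor chains, the kinase and STAT3 itself differed from WT by less than 1.5-fold in each clone. *Il6st*, which encodes the shared gp130 chain, stood at 26.0 and 27.3 FPKM in WT, 20.8 to 23.7 in *Dnttip1* KO and 21.0 to 22.1 in *Elmsan1* KO, with no overlap. Its log2 value was -0.28 ± 0.0699 (SE, adjusted p = 0.0579) in *Dnttip1* KO and -0.33 ± 0.0484 in *Elmsan1* KO, where the adjusted p of 0.0125 was under 0.05 but the fold change under 1.5 (adjusted p = 0.158 with an estimated correlation within clones). *Lifr*, the LIF-specific chain, overlapped WT, at 15.1 and 16.1 FPKM in WT, 14.8 to 17.3 in *Dnttip1* KO and 15.7 to 17.5 in *Elmsan1* KO. The ratio of *Lifr* to *Il6st* FPKM was 0.579 and 0.587 in the WT libraries and 0.626 to 0.831 in the KO libraries. *Jak1* stood at 7.19 and 7.31 FPKM in WT, 6.28 to 6.70 in *Dnttip1* KO, 7.53 and 7.58 in E2E8, and 6.34 and 6.26 in E2G7. *Stat3* overlapped WT in *Dnttip1* KO, at 12.5 and 13.5 FPKM in WT beside 12.6 to 14.2, and lay slightly above it in *Elmsan1* KO at 14.0 to 15.1. The log2 value of *Stat3* was 0.00 in *Dnttip1* KO (95% confidence interval -0.16 to 0.16) and 0.12 in *Elmsan1* KO (-0.01 to 0.25), intervals that exclude a 1.5-fold change in either direction.

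*Mycn*, the more abundant MYC factor, stood at 58.7 and 55.3 FPKM in WT, 34.9 and 35.6 in D2A7, 49.0 and 48.8 in D1E6, 40.0 and 41.4 in E2E8, and 46.2 and 46.5 in E2G7. All KO libraries lay below WT, but by unequal steps between clones. The log2 value was -0.48 ± 0.170 (SE, adjusted p = 0.134) in *Dnttip1* KO and -0.41 ± 0.0879 (adjusted p = 0.0345, fold under 1.5) in *Elmsan1* KO, and in the latter the adjusted p was 0.283 with an estimated correlation within clones. It fell in D2A7 (-0.71, adjusted p = 1.43e-05), and it stood at -0.51 in E2E8, -0.32 in E2G7 and -0.25 in D1E6, none past 1.5-fold. E2E8 passed when WT replicate 2 was left out (-0.59).

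*Myc* was far less abundant than *Mycn* and differed in direction between clones of 1 genotype. It stood at 1.30 and 1.06 FPKM in WT, 0.853 and 1.07 in D2A7, 1.91 and 1.87 in D1E6, 0.622 and 0.641 in E2E8, and 1.65 and 1.60 in E2G7. Its share of the summed *Myc* and *Mycn* FPKM was 1.88% and 2.17% in WT, and it ran from 1.53% in the E2E8 libraries to 3.76% in D1E6 replicate 1. Against WT it rose in D1E6 (0.62 ± 0.134 SE, adjusted p = 0.00773) and fell in E2E8 (-0.83 ± 0.135, adjusted p = 0.00135), and it stood at 0.42 in E2G7 and -0.29 in D2A7. The rise in D1E6 did not pass without WT replicate 2 (0.45) or D1E6 replicate 1 (0.59), nor did either change with a pseudocount of 1 (0.39 in D1E6 and -0.43 in E2E8), and E2G7 passed without WT replicate 1 (0.59). With the clones of a genotype pooled, the log2 values of 0.16 ± 0.350 in *Dnttip1* KO and -0.20 ± 0.452 in *Elmsan1* KO carried standard errors larger than the values.

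Each clone was also compared with WT on its own. In D2A7 3 members were lower (*Socs3*, *Mycn* and *Pim2*, beside 5.71% of genes) and 0 higher (11.4%), and in D1E6 2 were lower (*Socs3* and *Pim2*, 6.33%) and 1 higher (*Myc*, 5.34%). In E2E8 3 were lower (*Socs3*, *Myc* and *Pim2*, 6.23%) and 0 higher (10.7%), and in E2G7 2 were lower (*Socs3* and *Pim2*, 6.85%) and 0 higher (3.80%). These 4 comparisons share the WT libraries, which come from 1 unedited line. What all 4 clones share, such as lower *Socs3* and *Pim2*, cannot be told apart from a difference between that line and every edited clone. The chromosome 8 median also stood higher in all 4 clones (log2 0.35 to 0.37).

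**Figure D3:**
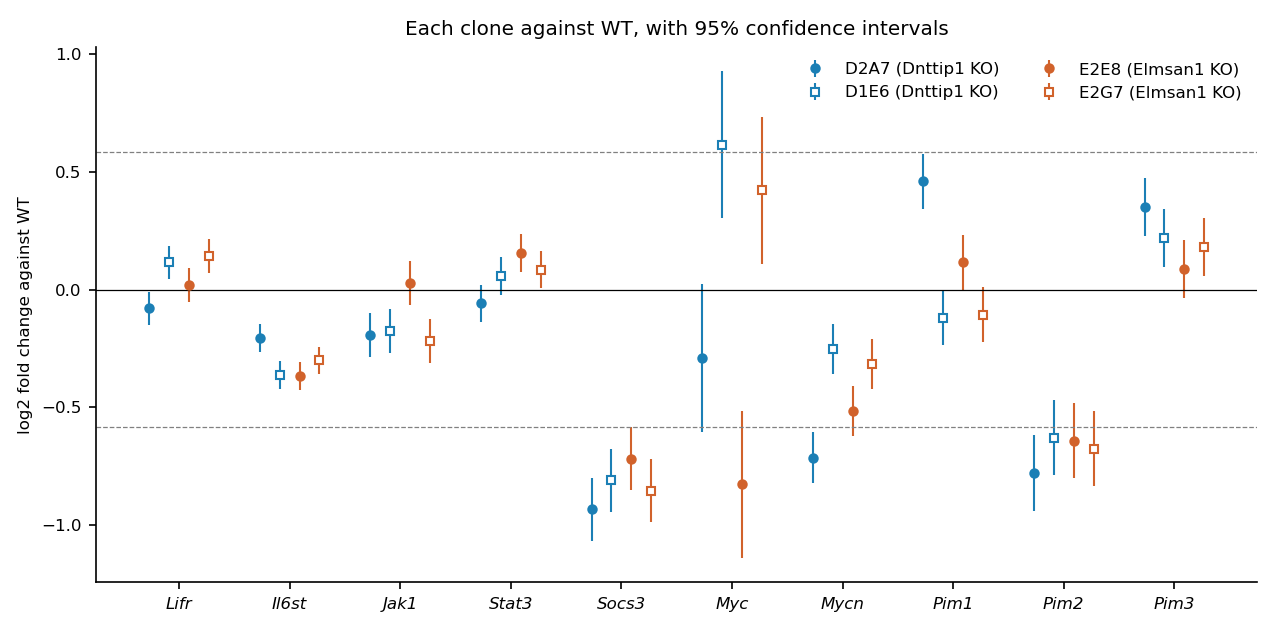
Log2 fold change against WT (y axis) of the 10 genes (x axis) in each of the 4 clones, from limma fits over the 10 libraries; bars are 95% confidence intervals and dashed lines mark a 1.5-fold change. *Socs3* and *Pim2* lie below the lower line in all 4 clones, whereas the *Myc* estimates run from -0.83 in E2E8 to 0.62 in D1E6.

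Compared directly, the clones of a genotype differed in *Myc*. It was lower in D2A7 than in D1E6 by -0.90 ± 0.135 on the log2 scale (adjusted p = 0.00109) and lower in E2E8 than in E2G7 by -1.25 ± 0.134 (adjusted p = 0.000222). It was the 1 member of 10 past both thresholds in each pair, where 13.8% and 13.2% of genes were. *Pim1* was higher in D2A7 than in D1E6 by 0.58 (adjusted p = 6.69e-05), just under 1.5-fold, and past it without D2A7 replicate 1 or D1E6 replicate 2 (0.59 and 0.60). At an adjusted p under 0.05 with any fold, 6 members differed between D2A7 and D1E6, where 46.0% of genes did, and 5 between E2E8 and E2G7, where 50.7% did. In the 2 pairs, which share no library, 4 members differed in the same direction, as did 15.1% of the 16302 genes tested in both. These were *Lifr* (-0.20 and -0.12), *Myc*, *Mycn* (-0.46 and -0.20) and *Pim1* (0.58 and 0.22), each value giving D2A7 against D1E6 and then E2E8 against E2G7. For *Socs3* the clone pairs differed by -0.12 (95% confidence interval -0.26 to 0.01) and 0.14 (0.00 to 0.27), and for *Pim2* by -0.15 (-0.31 to 0.01) and 0.03 (-0.13 to 0.19), so a difference between clones as large as that from WT lay outside these intervals.

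Between the knockouts, 0 of 10 members passed in limma or voom, where 1.52% of 17600 genes passed in limma and 1.56% of 17314 in voom. *Pim3* alone had an unadjusted p under 0.05 in limma, as did 15.8% of genes (log2 0.15 higher in *Dnttip1* KO, adjusted p = 0.300). The difference of *Dnttip1* KO from *Elmsan1* KO was -0.08 for *Socs3* (95% confidence interval -0.23 to 0.06), -0.05 for *Pim2* (-0.25 to 0.16) and -0.07 for *Mycn* (-0.36 to 0.22), and for *Myc* the interval of -0.51 to 1.24 was too wide to exclude a 1.5-fold difference.

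The other genes of the pathway were examined as lists, whose counts at an unadjusted p under 0.05 are to be read against 27.3% of all genes in *Dnttip1* KO and 27.8% in *Elmsan1* KO. Counts that passed are to be read against 3.24% of genes lower and 3.26% higher in *Dnttip1* KO, and 3.68% and 2.74% in *Elmsan1* KO. Of 11 genes for gp130 ligands and receptor chains, 7 were tested in *Dnttip1* KO with 0 passing in limma (1 at an unadjusted p under 0.05) and a median log2 value of -0.01 (0.02 over all genes), and 8 in *Elmsan1* KO, where 1 was lower, with a median of 0.08 (0.00 over all genes). That gene was *Il6ra*, the receptor of interleukin 6, at 3.16 and 3.25 FPKM in WT and 1.81 to 2.03 in *Elmsan1* KO (log2 -0.72, adjusted p = 0.0114, or 0.159 with an estimated correlation within clones). In *Dnttip1* KO its clones split, with 3.43 and 3.24 FPKM in D2A7 and 2.08 and 2.28 in D1E6. *Lif* itself was transcribed at a low level that overlapped between groups, at 1.48 and 1.73 FPKM in WT, 1.40 to 1.75 in *Dnttip1* KO and 1.58 to 2.03 in *Elmsan1* KO. Of the 9 other JAK kinases and STAT factors, 0 passed in *Dnttip1* KO in limma (median 0.06, 5 at an unadjusted p under 0.05) and 2 rose in *Elmsan1* KO (median 0.17). *Jak3*, the kinase of the common gamma chain receptors, stood at 15.5 and 15.0 FPKM in WT and 23.5 to 26.7 in *Elmsan1* KO (log2 0.68, adjusted p = 0.00520, or 0.157 with that correlation). *Stat5a* stood at 0.631 and 0.584 FPKM in WT and 0.934 to 1.36 in *Elmsan1* KO (log2 0.79, adjusted p = 0.0535, or 0.333 with that correlation). Of the 15 other SOCS factors and JAK-STAT inhibitors 0 passed in either knockout in limma (medians 0.04 and -0.06; 2 and 7 at an unadjusted p under 0.05), and *Socs2*, a feedback inhibitor of STAT5 signalling at 9.57 and 10.0 FPKM in WT, stood at 11.3 to 15.2 in the KO libraries.

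Of the 8 other STAT3 target genes, 1 rose in both knockouts and 0 fell in limma (medians 0.01 and -0.18; 5 and 4 at an unadjusted p under 0.05). It was *Junb*, an AP-1 subunit, at 5.73 and 5.11 FPKM in WT and 7.70 to 9.54 in the KO libraries (log2 0.65, adjusted p = 0.0204, and 0.68, adjusted p = 0.0122; with a correlation within clones, adjusted p = 0.297 and 0.247). *Junb* and *Jak3* lie on chromosome 8, whose 667 genes of at least 1 FPKM stood higher than WT by a median log2 value of 0.35 to 0.37 in all 4 clones, whereas the medians of the members' chromosomes lay between -0.10 and 0.04; the part of that shift in the values of *Junb* and *Jak3* was not tested. *Klf4* and *Mcl1*, which STAT3 activates in mESCs, stood lower in each KO library without reaching 1.5-fold, *Klf4* at 83.5 and 85.4 FPKM in WT and 59.3 to 81.0 in the KO libraries, and *Mcl1* at 85.4 and 87.5 FPKM in WT and 64.5 to 82.2. Other genes of the list stood higher than WT in some clones, also under 1.5-fold. *Bcl3*, an atypical IκB protein, stood at 10.1 and 8.83 FPKM in WT and 13.2 and 14.7 in D2A7 (log2 0.53, adjusted p = 0.00276), with 0.29 in D1E6, 0.27 in E2G7 and -0.03 in E2E8. *Bcl2l1* (BCL-XL) and the naïve factor *Tfcp2l1* stood higher in D2A7 (log2 0.33 and 0.25) and lower in E2E8 (-0.32 and -0.36).

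Of the 11 genes of the MAX network, 0 passed in *Dnttip1* KO in limma (median 0.08, 4 at an unadjusted p under 0.05) and 1 fell in *Elmsan1* KO (median -0.04). It was *Mxd4*, a MAX partner that opposes MYC, at 0.812 and 0.802 FPKM in WT and 0.422 to 0.549 in *Elmsan1* KO (log2 -0.69, adjusted p = 0.0420, or 0.447 with an estimated correlation). *Mxd3*, of the same list, went the other way in all 4 clones (log2 0.46 in D2A7, 0.60 in D1E6, 0.71 in E2E8 and 0.50 in E2G7). It passed in D1E6 and E2E8 but in neither knockout. *Mycl1* split by clone, passing as higher in D2A7 (log2 0.74) and as lower in E2E8 (-1.10), with -0.02 in D1E6 and -0.30 in E2G7. It passed in neither knockout against WT. Between the knockouts it passed as higher in *Dnttip1* KO (1.06), where 1.52% of genes passed, but its adjusted p was not under 0.05. *Mlxipl* passed as higher in D2A7 (0.64) and E2E8 (1.53), with 0.44 in D1E6 and 0.08 in E2G7. Of the 7 MYC turnover genes 0 passed in either knockout in limma (medians 0.00 and -0.12; 3 and 4 at an unadjusted p under 0.05). At an adjusted p under 0.05 there were 2 in each knockout, beside 9.47% and 10.5% of all genes. *Fbxw7*, which directs MYC to degradation, stood at 8.53 and 8.81 FPKM in WT and 6.62 to 7.40 in the KO libraries. *Huwe1* passed as higher in E2G7 (log2 0.62), with 0.24 in D2A7, 0.33 in D1E6 and 0.06 in E2E8. *Usp28* stood higher in all 4 clones (0.17 to 0.33), under 1.5-fold. Of 15 MYC target genes, 2 fell in *Dnttip1* KO and 1 in *Elmsan1* KO, and 0 rose in either, with medians of -0.12 and -0.14. *Ccnd2*, a D-type cyclin at a very low level here, stood at 0.491 and 0.592 FPKM in WT and 0.0301 to 0.149 in the KO libraries (log2 -1.55, adjusted p = 0.00948, and -1.88, adjusted p = 0.0156; 0.167 and 0.159 with that correlation). *Ldha*, lactate dehydrogenase A, fell in *Dnttip1* KO from 145.0 and 146.5 FPKM to 83.9 to 112.2 (log2 -0.61, adjusted p = 0.0490, or 0.150 with that correlation), and in *Elmsan1* KO its clones split, with 144.8 and 137.0 FPKM in E2E8 and 101.0 and 101.2 in E2G7. Nucleolin (*Ncl*) and nucleophosmin (*Npm1*), which act in ribosome production, did not pass, with *Ncl* at 130.5 and 143.0 FPKM in WT and 91.1 to 140.0 in the KO libraries, and *Npm1* at 1291 and 1301 FPKM in WT and 1032 to 1258. Other target genes stood higher in some clones. *Tert* passed as higher in E2E8 against WT (log2 0.94) and against E2G7 (0.86). Against WT it stood at -0.12 in D2A7, 0.07 in D1E6 and 0.08 in E2G7. *Cad* stood at -0.24 in D2A7, 0.13 in D1E6, 0.13 in E2E8 and 0.29 in E2G7, all under 1.5-fold. Of 6 PIM substrates 0 passed in either knockout in limma (medians 0.01 and -0.02; 1 in each at an unadjusted p under 0.05), and *Cdc25c*, a phosphatase of mitotic entry, stood at 14.2 and 14.5 FPKM in WT, 9.72 to 11.7 in *Dnttip1* KO and at most 14.0 in *Elmsan1* KO.

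**Figure D4:**
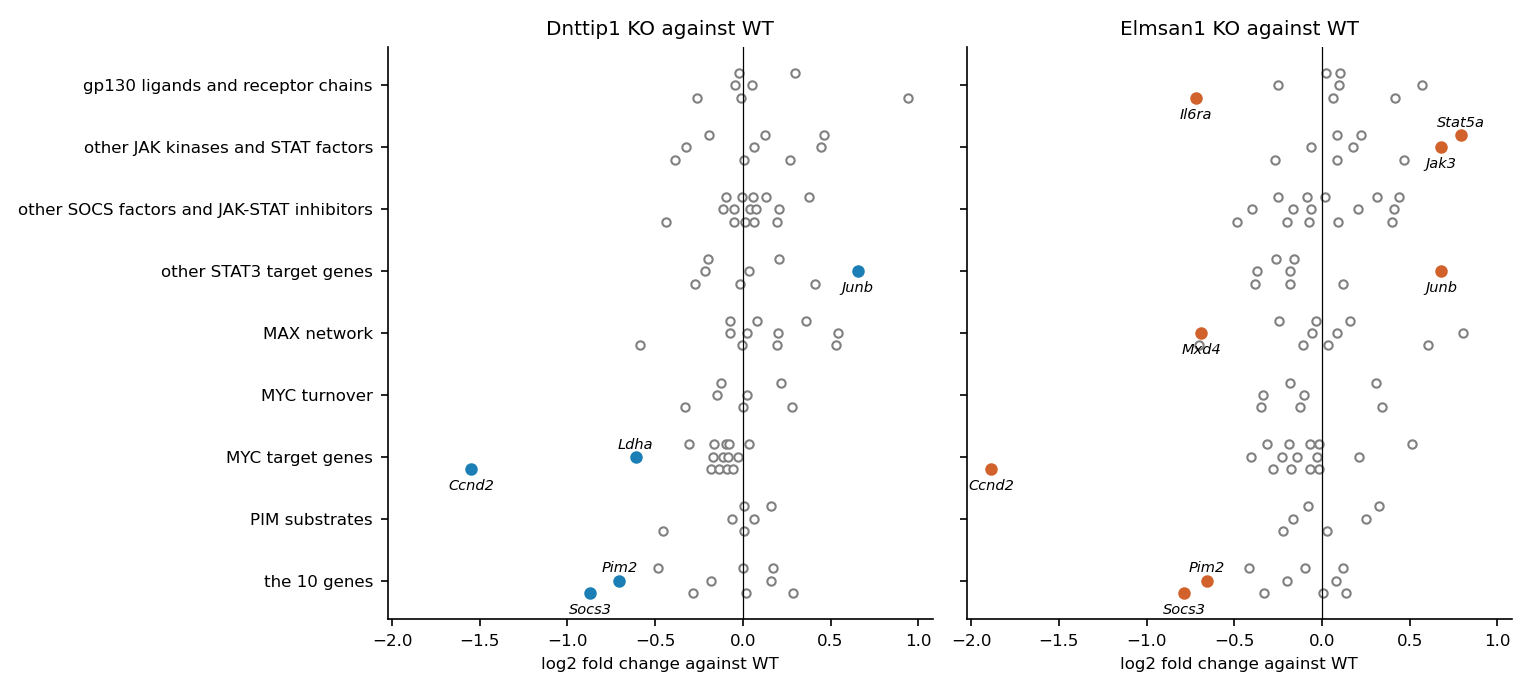
Log2 fold change against WT (x axis) of each tested gene of 8 pathway lists and of the 10 members (rows), *Dnttip1* KO left and *Elmsan1* KO right; filled points passed a fold change of at least 1.5 and p under 0.01 and are named, open points did not. Of the 88 and 89 points, 79 and 76 lie within 0.5 of 0, and *Ccnd2* lies farthest from it in both panels.

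Among marker lists, the 5 primed epiblast markers varied by clone, summing to 22.1 and 22.2 FPKM in WT, 14.1 to 27.2 in *Dnttip1* KO and 4.91 to 17.0 in *Elmsan1* KO. Of the 4 tested, 1 fell in each knockout and 0 rose, with medians of -0.49 and -0.54. *Otx2*, a factor of the primed state, stood at 10.8 and 11.1 FPKM in WT, 11.4 and 10.6 in D2A7, 2.93 and 2.93 in D1E6, 0.742 and 0.772 in E2E8, and 3.04 and 2.90 in E2G7, and it fell in *Elmsan1* KO (log2 -2.80, adjusted p = 0.0434, or 0.137 with an estimated correlation). *Lef1*, at 0.334 and 0.338 FPKM in WT, fell in *Dnttip1* KO to 0.110 to 0.187 (log2 -0.82, adjusted p = 0.0650, or 0.425 with that correlation). *Dnmt3b*, a de novo DNA methyltransferase, stood at 10.7 and 10.3 FPKM in WT, 15.4 and 15.3 in D2A7, 10.8 and 11.1 in D1E6, 3.67 and 3.86 in E2E8, and 13.5 and 13.6 in E2G7. It fell in E2E8 (log2 -1.49, adjusted p = 6.49e-07) and stood higher, under 1.5-fold, in D2A7 (0.52) and E2G7 (0.35). *Pou3f1* stood at 0.195 to 0.306 FPKM over all libraries. The 6 primitive endoderm markers summed to 0.622 to 1.41 FPKM over all libraries. The part of these shifts in the values of the 10 genes was not tested.

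Across the 10 libraries, the gene whose log2 level was most like that of *Socs3*, among 12216 genes of at least 1 FPKM, was *Pim2* (Pearson r = 0.989), and the next was *Rcor2* (r = 0.988), which encodes a REST corepressor and stood at a mean of 32.9 FPKM in WT and 20.4 to 23.1 in the clones. For *Pim2* the next after *Socs3* was *Rnf113a1* (r = 0.985). The closest genes to *Il6st* were the guidance ligand gene *Ntn1* (r = 0.991) and *Map4k3* (r = 0.978), with *Ntn1* at 25.0 FPKM in WT and 12.3 to 15.9 in the clones. *Mycn* was closest to *Pfkl* (r = 0.987), the liver-type phosphofructokinase, and *Upf3b* (r = 0.982), *Myc* to *Ddx58* (r = 0.980) and *Tfe3* (r = 0.980), and *Lifr* to *Rhox9* (r = 0.982) and *Tuba4a* (r = 0.969). *Jak1* was closest to *Sec62* (r = 0.983) and *Cnih4* (r = 0.982), *Stat3* to *Cep110* (r = 0.968) and *Dcp1b* (r = 0.966), *Pim1* to *Cep57l1* (r = 0.985) and *Sfxn3* (r = 0.983), and *Pim3* to *Dgkz* (r = 0.974) and *Pld2* (r = 0.966). These coefficients describe 10 libraries of 5 lines that share depth and line.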

How the data were processed

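Total RNA of 10 mESC libraries was prepared with a stranded ribosomal depletion kit and sequenced as 100-cycle paired ends on 1 of 3 Illumina instruments, which libraries ran on which not being given in the sources used here. Per the labels and the study's methods, reads were aligned to NCBIM37 (mm9) and counted with HTSeq, and edgeR 3.16.5, limma and R 3.3.1 are named in the submitters' processing notes. The authors deposited 1 table of FPKM for 34591 genes, with values normalized for exon length and library size. The study's methods name another annotation release, GENCODE vM20, whereas exon lengths, transcript starts and windows here are those of GENCODE vM1 on NCBIM37. Multiplied by vM1 exon length (97.2% of IDs matched), at least 98.1% of the low values of each library came out as whole fragments within 0.02, and these fragments gave the depth and an alternative test with voom.

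FPKM were scaled by median ratio over 11270 genes and tested as log2(FPKM + 0.1) with limma 3.58.1 (variance trend, R 4.3.3) on genes of at least 0.1 FPKM in 2 libraries of the comparison. Knockouts were compared with WT as 4 against 2 libraries, with 4 residual degrees of freedom, and single lines in a fit of all 10 libraries. A gene passed when it differed at least 1.5-fold with p under 0.01 before adjustment, and adjusted p-values are Benjamini-Hochberg over all genes tested; intervals are 95% and two-sided. A low gene's fold change is understated by the pseudocount. The scripts were tested on simulated data. Libraries of a line differed beyond sampling noise.

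The 10 genes and the lists were chosen with earlier results of these data known. Beyond the 10 genes, the text names listed genes that passed in both knockouts, or in 1 with its 4 libraries outside the WT range, at most 4 a list, up to 2 a list that passed in neither, and the 2 genes most correlated with each member. *Klf4*, *Mcl1*, *Socs2*, *Fbxw7*, *Lif*, *Ncl*, *Npm1* and *Cdc25c* are listed genes of this kind that did not pass. *Bcl3*, *Bcl2l1*, *Tfcp2l1*, *Mxd3*, *Sox2*, *Nanog*, *Zfp42*, *Dppa5a*, *Dnmt3b* and *Pou3f1* were named after their values were seen. So were *Mycl1*, *Mlxipl*, *Huwe1*, *Usp28*, *Tert*, *Cad*, *Tdgf1* and *Pou5f1*. Overlapping or antisense genes and shared reads of paralogs were not resolved. Clone codes are used because the labels and the series text number the *Dnttip1* clones differently. Alternatives were the pseudocount, filter, scaling, variance model, call rule, voom, single libraries left out, a replicate block, a correlation within clones, other pooling of clones, and fits on the 4 libraries compared.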

Additional observations from a re-analysis of the deposited data

Results flagged for a closer look

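*Myc* differed between clones carrying the same knockout. The log2 value of D2A7 against D1E6 was -0.90 (adjusted p = 0.00109, lower in 2 of 2 libraries), and that of E2E8 against E2G7 was -1.25 (adjusted p = 0.000222, lower in 2 of 2 libraries), each by the limma test of the difference itself. It rests on 109 to 377 fragments a library, and with a pseudocount of 1 the first difference was -0.55 and no longer 1.5-fold. No member had a library standing apart from the other 3 of its knockout by Dixon's criterion. Where the 2 clones of a knockout lie apart, as for *Myc*, that criterion can hardly mark 1 library, so no conclusion is drawn from it.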

How the results depend on the processing

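Of 1399 log2 values of the members recomputed under an alternative, 1360 kept their direction and their side of the threshold, 13 no longer passed, 5 newly passed and 21 changed sign; the sign changes were in results no larger than 0.20 on the log2 scale. With a pseudocount of 1, which shrinks low genes, 1 member passed in each knockout against WT and 0 between D2A7 and D1E6 (*Pim2* and *Myc* no longer reached 1.5-fold). The calls summed over the 4 clones against WT went from 11 to 6, while those of all genes went from 9500 to 4109. At that pseudocount 540 of 17435 genes passed in *Dnttip1* KO and 525 of 17205 in *Elmsan1* KO. Between D2A7 and D1E6, 712 genes were higher and 313 lower of 16996. Where any fold change counted so long as the adjusted p was under 0.05, 4 members passed in *Elmsan1* KO (10.5% of genes), 6 between D2A7 and D1E6 (46.0%) and 5 between E2E8 and E2G7 (50.7%). Over the 4 clones against WT that rule gave 29 member calls. Of all genes tested, it passed 8898 of 17097 in D2A7, 7332 of 16688 in D1E6, 9316 of 16893 in E2E8 and 6950 of 16595 in E2G7. Under quantile normalization 2 members passed between D2A7 and D1E6, where 1250 genes were higher and 1156 lower of 16996. Leaving out single libraries gave 1 to 2 members there. In those fits 1258 to 1557 genes were higher and 576 to 683 lower, of 16365 to 16734 tested. Values that changed sign were, under quantile normalization, *Lifr* (-0.00511) and *Stat3* (-0.0289) in *Dnttip1* KO, *Jak1* in E2E8 against WT (-0.0212) and *Pim2* in E2E8 against E2G7 (-0.156), and, with voom, *Stat3* in *Dnttip1* KO (-0.00575). Leaving out single libraries moved across 0 *Lifr* (-0.0165 to 0.0555), *Stat3* (-0.0302 to 0.0220) and *Myc* (-0.00489 to 0.364) in *Dnttip1* KO, *Myc* (-0.417 to 0.0122) and *Pim1* (-0.0710 to 0.0820) in *Elmsan1* KO, *Mycn* between the knockouts (-0.147 to 0.0138), *Jak1* between D2A7 and D1E6 (-0.0492 to 0.0217) and *Lifr* in E2E8 against WT (-0.0123 to 0.0529). The cause was not tested.

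An estimated correlation within clones (0.70 and 0.77) lowered the genes called against WT from 1134 to 538 in *Dnttip1* KO and from 1105 to 486 in *Elmsan1* KO, whereas testing the mean of the clone effects raised them to 2161 and 1958. The latter takes its error from the libraries of a line and leaves out the spread between clones, so it is the less strict. In each of these fits *Socs3* and *Pim2* were the members called. Over 10 pairs of lines, the deviations of same-numbered libraries correlated at -0.19 (WT and E2E8) to 0.33 (D2A7 and E2E8). They show no deviation common to all lines, and whether some lines share a batch by replicate number cannot be told from them. With the replicate block the count of members called was again 2 in each knockout against WT, 0 between the knockouts, 1 in each clone pair and 11 over the clones. Of all genes, that fit called 897 of 17435 in *Dnttip1* KO, 870 of 17205 in *Elmsan1* KO and 171 of 17600 between the knockouts. It called 1653 higher and 656 lower of 16996 in D2A7 against D1E6, and 1667 and 522 of 16727 in E2E8 against E2G7. Over the clones against WT it called 9363. No paired reading is made of the block. *Myc*, with 109 to 377 fragments a library, is the member that depth limits.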
